A study of Mus musculus with 12 samples.

Results

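*Prl2c2* and *Prl2c3* are mouse genes for proliferins, secreted glycoproteins of the prolactin and growth hormone family. The pair was chosen by its WT values, since both genes were among those that fell most from 0d to 5d in WT cells. Every comparison of them that uses WT libraries is therefore a description with no test. They are 2 of the 46983 genes in the table and 2 of the 26 prolactin family genes found in it.

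Proliferins were found as transcripts that serum induces in cultured mouse fibroblasts, and in the animal their main source is the trophoblast giant cell of the placenta. The proteins bind the receptor for mannose 6-phosphate and insulin-like growth factor II and act on endothelial cells as angiogenic factors, whereas prolactin itself signals through its own receptor, the kinase JAK2 and STAT5. In cultured muscle cells, proliferin has been described as an inhibitor of myogenic differentiation.

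The study sequenced RNA of C2C12, a mouse myoblast line that fuses into myotubes in culture, in 12 libraries that form 4 groups of 3. WT cells (labelled wild type) carried the PiggyBac vector PB-IP, and PPARγ/+ cells carried that vector with the coding sequence of PPARγ, the nuclear receptor that drives adipocyte differentiation. The vector was transfected together with transposase, puromycin selected the positive clones, and cells were taken on day 0 (0d) and day 5 (5d) of culture. Comparing the days follows differentiation, and comparing the cell types on each day asks what added PPARγ changes. The sources used here do not say whether the selected cells were kept as a pool or as single clones, which promoter drove PPARγ, or what medium started differentiation. The design text calls the cells inducible and the controls uninduced without naming an inducer. The study calls the replicates of each group biological and triple, and the sources used here do not say whether they were separate cultures or separate selections, so a p-value measures only the spread between these libraries.

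Levels are FPKM, fragments per kilobase of exon scaled to the mapped fragments of the library. The libraries held 18581300 to 26073154 mapped fragments, as recovered from the FPKM values. *Pparg* carried the label in the data: its FPKM was 3.12 to 7.56 in the 6 WT libraries and 28.0 to 92.7 in the 6 PPARγ/+ libraries. The myoblast genes *Des* and *Myod1* were expressed in all 12 libraries, with FPKM of at least 45.5 and 5.03. Within their groups, 3 libraries stood apart. WT_0d replicate 2 had a *Myog* (myogenin) FPKM of 15.7, against 2.69 and 1.47 in the other WT_0d libraries. WT_5d replicate 3 had an FPKM of 92.6 for *Mymk* (myomaker, which drives myoblast fusion), against 336.1 and 320.6 in the other WT_5d libraries. PPARγ/+_5d replicate 3 had a *Pparg* FPKM of 92.7, against 40.1 and 44.1 in the other libraries of its group.

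*Prl2c3* (ENSMUSG00000056457) lies at chr13:12790816-12800079 and *Prl2c2* (ENSMUSG00000079092) at chr13:12996125-13005383, both on the minus strand of GRCm38. A further proliferin gene, *Prl2c5* (ENSMUSG00000055360), lies on the plus strand at chr13:13182715-13191923. Each of the 3 genes has 5 exons in its transcript. The coding sequences of *Prl2c2* and *Prl2c3* are 672 bases long and 99.6% identical. Counted from 1 at the first base of the start codon, and with the base of *Prl2c2* first, they differ by T14C in exon 1, C200A in exon 2 and T319G in exon 4. The coding sequence of *Prl2c5*, of 666 bases, is 96.1% identical to that of *Prl2c2* and 96% identical to that of *Prl2c3*. To show how little sequence separates the genes, 90 coding bases of exon 2 (positions 118 to 207) are printed with capitals at the 3 positions where the genes are not all alike. The stretches lie at chr13:13002134-13002223 on the minus strand for *Prl2c2*, chr13:12796831-12796920 on the minus strand for *Prl2c3* and chr13:13185876-13185965 on the plus strand for *Prl2c5*.
Prl2c2: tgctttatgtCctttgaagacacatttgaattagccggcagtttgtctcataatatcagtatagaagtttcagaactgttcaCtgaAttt
Prl2c3: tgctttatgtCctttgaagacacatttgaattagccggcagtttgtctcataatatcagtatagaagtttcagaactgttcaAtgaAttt
Prl2c5: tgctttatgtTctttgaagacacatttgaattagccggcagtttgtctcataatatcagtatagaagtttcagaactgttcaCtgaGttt

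A read from either member often matches the other. Of all stretches of 100 bases in the transcript, 66.4% for *Prl2c2* and 62.3% for *Prl2c3* also occur in the transcript of another gene, against 8.72% for *Prl2c5*. With stretches of 150 bases the shares were 50.9%, 49.9% and 0%. For the members, the other gene was the other member or *Gm7040*, a pseudogene at chr13:13320941-13323370, and with 100 bases *Prl2c5* too for *Prl2c2*. The sources used here do not say how reads that map to several genes were counted, so the level of each member as a separate gene is uncertain, and the summed level is given beside it.

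**Figure D1:**
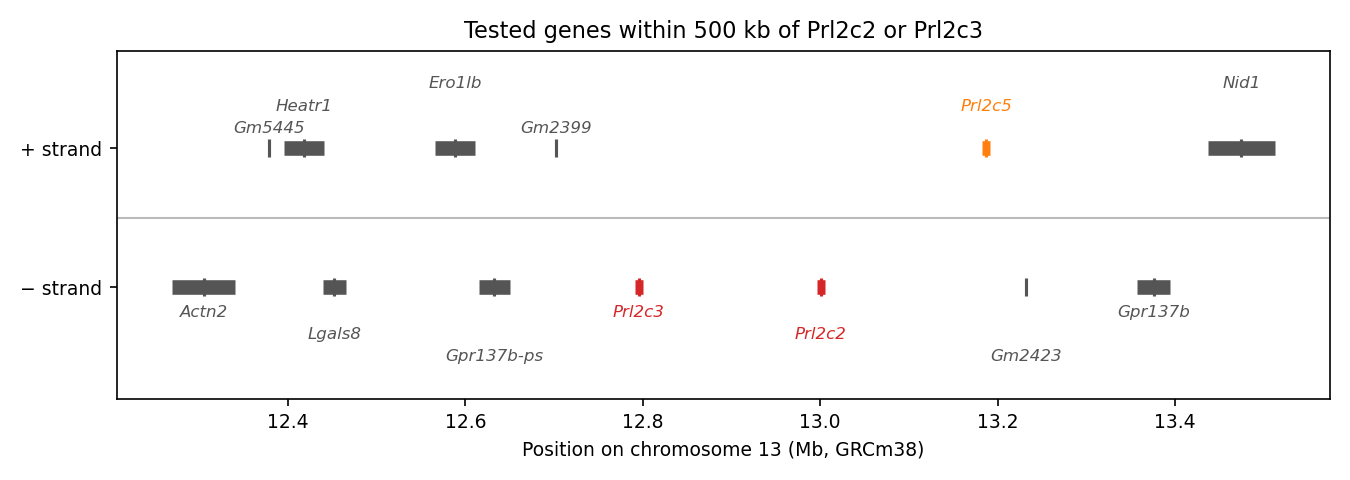
The region of mouse chromosome 13 around the proliferin genes (GRCm38, position in megabases along the axis), with the tested genes within 500 kb of either member drawn to scale, a tick at the centre of each, and the strand given by the row. *Prl2c3* and *Prl2c2* lie on the minus strand and *Prl2c5* on the plus strand.

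In the WT_0d libraries, the FPKM of *Prl2c2* was 125.9, 39.7 and 103.5, and in the WT_5d libraries it was 0.517, 1.30 and 5.10. In the PPARγ/+_0d libraries, its FPKM was 251.8, 231.2 and 242.0, and in the PPARγ/+_5d libraries it was 29.3, 30.4 and 45.3. Every 0d library was thus above every 5d library of its own cell type, and every PPARγ/+ library was above every WT library of the same day. The WT_5d libraries were the low extreme, with an inferred 11, 21 and 97 fragments, and WT_0d and PPARγ/+_5d overlapped, since WT_0d replicate 2 lay within the PPARγ/+_5d range. The group means were 89.7 ± 44.7 in WT_0d, 2.31 ± 2.45 in WT_5d, 241.7 ± 10.3 in PPARγ/+_0d and 34.98 ± 8.96 in PPARγ/+_5d (FPKM, SD, n = 3 each).

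*Prl2c3* was the more abundant member per length in every library except WT_5d replicates 2 and 3. In the WT_0d libraries its FPKM was 130.9, 72.9 and 143.8, and in the WT_5d libraries 0.785, 0.671 and 2.48. In the PPARγ/+_0d libraries its FPKM was 425.1, 448.6 and 514.2, and in the PPARγ/+_5d libraries 42.7, 46.2 and 79.8. The order was that of *Prl2c2*, highest in PPARγ/+_0d, then WT_0d, PPARγ/+_5d and WT_5d, and again only WT_0d and PPARγ/+_5d overlapped among neighbours in that order. The WT_5d libraries rested on 17, 11 and 48 fragments. The group means were 115.8 ± 37.8 in WT_0d, 1.31 ± 1.01 in WT_5d, 462.6 ± 46.2 in PPARγ/+_0d and 56.3 ± 20.5 in PPARγ/+_5d (FPKM, SD, n = 3 each). In these bulk libraries, fewer cells that express proliferin and less proliferin RNA per cell cannot be told apart.

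**Figure D2:**
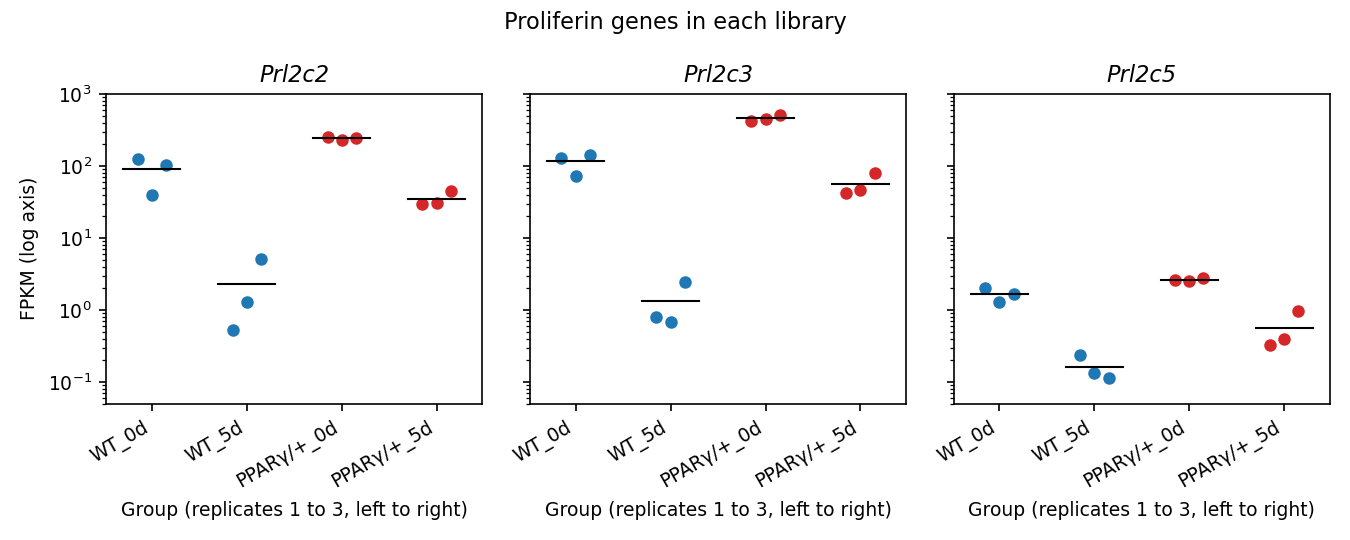
FPKM of *Prl2c2*, *Prl2c3* and *Prl2c5* on a log axis in the 12 libraries (points) by group, with the group mean as a line (n = 3). Both members run from under 6 FPKM in WT_5d to over 200 FPKM in PPARγ/+_0d, and *Prl2c5* stays under 3 FPKM.

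From 0d to 5d, both members fell in PPARγ/+ cells, the comparison that the choice of genes did not use. Mean FPKM went from 241.7 to 34.98 for *Prl2c2*, a ratio of means of 6.91, and from 462.6 to 56.3 for *Prl2c3*, a ratio of 8.22. In limma, the log2 fold change of *Prl2c2* was −2.81 (SE 0.16, adjusted p = 5.01e-05), with all 3 libraries on 5d below all 3 on 0d. For *Prl2c3*, limma gave a log2 fold change of −3.09 (SE 0.23, adjusted p = 0.00012), again with no overlap. Thus 2 of 2 members were called lower, where 6.06% of the 18023 tested genes were called lower and 15.2% were called in either direction. The pair was chosen for its fall over the same days in WT cells of the same line. Many reads also match both members, so these shares are no yardstick for 2 separate calls. A call here is an unadjusted p of at most 0.05 with at least a 2-fold change. Ordered by the size of the fall, *Prl2c3* was number 106 and *Prl2c2* number 138 of 18023, and the median of all genes was −0.095. Summed as 1 feature, the members had a log2 fold change of −2.99 (limma, adjusted p = 8.73e-05).

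The 5d decline was not uniform over the PPARγ/+ libraries. Replicate 3 kept the most of both transcripts, and without it the log2 fold change was −3.01 for *Prl2c2* and −3.37 for *Prl2c3*. That library was also the highest of its group in *Pparg* and in the adipocyte genes, with an adiponectin (*Adipoq*) FPKM of 40.5 against 8.03 and 12.7. Whether those levels have a part in its proliferin level was not tested.

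In WT cells, where the genes were picked, the description gives a ratio of means of 38.9 for *Prl2c2* and 88.3 for *Prl2c3*. On the log2 scale the differences between 5d and 0d were −5.61 and −6.53. They stood second and first among the 18023 tested genes in the size of the fall, followed by *Gm26394* at −5.15 and *Nefl* at −4.86, which are named after their values were seen. Of all tested genes, 7.53% were called lower in this comparison and 8.94% higher, 16.5% in all, and nothing is read from that for the members. Relative to the group means, the WT libraries of each day also spread more than the PPARγ/+ ones of the same day. WT_0d replicate 2 was lowest in both proliferins on 0d and highest in *Myog* and skeletal actin (*Acta1*), whose FPKM was 58.6 there and 7.95 and 5.40 in the others. WT_5d replicate 3 was highest in both proliferins on 5d and lowest in those genes, with an *Acta1* FPKM of 491 against 2156 and 1725. With each library left out in turn, the difference ran from −6.43 (without WT_5d replicate 3) to −4.90 (without WT_5d replicate 1) for *Prl2c2*, and from −7.07 (without WT_5d replicate 3) to −6.20 (without WT_5d replicate 2) for *Prl2c3*. The places in the order of falls hold for the fit with all 6 WT libraries and were not computed without a library. In PPARγ/+ cells, replicate 3 had the highest summed FPKM of the myoblast and myotube genes below on both days. It also had the most *Prl2c3* on both days and the most *Prl2c2* on 5d. The part of these muscle transcripts in the proliferin levels was not tested.

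Between the cell types, the members were higher in PPARγ/+ cells on both days, which is also given with no test. The ratio of mean FPKM on 0d was 2.69 for *Prl2c2* and 3.99 for *Prl2c3*. On 5d the ratios were 15.2 and 42.9, taken against WT means of few fragments. Library by library, the ratio on 5d ran from 5.74 to 87.6 for *Prl2c2* and from 17.2 to 119 for *Prl2c3*. Whether the day difference itself differs between the cell types was not tested for these genes, because the WT values chose them.

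The share of the summed FPKM that the proliferins made up can be followed in each library. Summed, the members made up 0.0918%, 0.0401% and 0.0876% of all FPKM in the WT_0d libraries and 0.000486%, 0.000726% and 0.00281% in the WT_5d libraries. In PPARγ/+ cells the summed share was 0.238%, 0.241% and 0.274% on 0d and 0.0271%, 0.0279% and 0.0463% on 5d. By FPKM, *Prl2c3* was thus among the most abundant transcripts of the PPARγ/+_0d libraries, at places 72, 62 and 46 of the table. It stood at places 12052, 12448 and 9466 in the WT_5d libraries, and at 936, 875 and 458 in the PPARγ/+_5d libraries.

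The members moved together but not in a fixed proportion. Across the 12 libraries, Pearson's r between *Prl2c2* and *Prl2c3* was 0.987 on log2(FPKM + 0.1), which follows the differences between the 4 groups. The FPKM ratio of *Prl2c3* to *Prl2c2* was 1.04, 1.84 and 1.39 in the WT_0d libraries and 1.69, 1.94 and 2.12 in the PPARγ/+_0d libraries. On 5d it was 1.52, 0.515 and 0.486 in the WT libraries and 1.46, 1.52 and 1.76 in the PPARγ/+ libraries. Only WT_5d replicates 2 and 3 had more *Prl2c2* than *Prl2c3*, and these ratios rest on the uncertain split of reads between the genes.

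*Prl2c5* followed the same order of groups at a far lower level. Its FPKM was 2.02, 1.28 and 1.69 in the WT_0d libraries and 0.233, 0.132 and 0.112 in the WT_5d libraries, the last from 7, 3 and 3 fragments. In the PPARγ/+_0d libraries its FPKM was 2.58, 2.54 and 2.80, and in the PPARγ/+_5d libraries 0.328, 0.395 and 0.960. No neighbouring groups in that order overlapped. Of the stretches of *Prl2c2*, 2.83% with 100 bases and 0% with 150 bases also occur in *Prl2c5*. Whether reads shared with *Prl2c2* make up part of the *Prl2c5* level was not tested. In PPARγ/+ cells, *Prl2c5* fell from 0d to 5d (limma, log2 fold change −2.17, SE 0.34, adjusted p = 0.00207), lower in all 3 libraries on 5d. These 5d libraries held 8, 10 and 21 fragments of it, and the value was −1.24 with a pseudocount of 1, still called, and −2.57 without PPARγ/+_5d replicate 3. With the mean of both members on the log2 scale, its r over the 12 libraries was 0.910.

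No other gene of the prolactin family came near these levels. Of the 26 genes in the table, 23 were under 1 FPKM in every library, 16 were at 0 in every library, and only the 3 proliferin genes named here passed the filter for testing. Those at 0 include *Prl2c1*, whose coding sequence is 92.4% identical to that of *Prl2c2*, and the placental lactogen gene *Prl3b1*. *Prl* itself was detected in a single library, with an FPKM of 0.0579 in WT_5d replicate 2.

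Proliferin RNA is best known from the placenta, so trophoblast markers were counted in the same libraries. Of 13 trophoblast genes, 7 were at 0 in every library (*Hand1*, *Gcm1*, *Cdx2*, *Tpbpa*, *Tpbpb*, *Ctsq* and *Ctsj*) and 12 were under 1 FPKM in every library. The exception was *Peg10*, an imprinted gene that other cell types express as well. The summed FPKM of the list was 19.2, 22.1 and 40.1 in WT_0d, 9.89, 9.67 and 6.11 in WT_5d, 63.2, 43.0 and 34.0 in PPARγ/+_0d and 12.3, 11.4 and 12.4 in PPARγ/+_5d, nearly all of it *Peg10*. Of the 2 genes tested, *Peg10* fell in WT cells (limma, log2 fold change −1.62, SE 0.32, adjusted p = 0.01) and in PPARγ/+ cells (−1.92, SE 0.21, adjusted p = 0.000474), lower in every 5d library than in any 0d library of its cell type. The median log2 fold change of those 2 genes was −1.03 and −0.99 between the days. Between the cell types it was 0.39 on 0d and 0.43 on 5d, and neither gene was called. Of all tested genes, 7.53% (WT) and 6.06% (PPARγ/+) were called lower between the days. Between the cell types, 1.96% (0d) and 1.10% (5d) were called, so that counts among 2 genes say little. At an unadjusted p of at most 0.05 and any fold, 1 and 0 of the 2 passed, against 21.3% and 15.3% of all genes. Pituitary markers were as scarce: 5 of 5 were under 1 FPKM in every library, and none passed the filter.

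On the receiving side, transcripts for the proliferin receptor were present and those for the prolactin receptor were not detectable above the floor. *Igf2r*, the receptor for mannose 6-phosphate and insulin-like growth factor II, had an FPKM of 10.5 to 17.4 in all 12 libraries. *Prlr* reached an FPKM of at most 0.0105, from 0 to 3 fragments a library. *Igf2r* was not called in either day comparison (limma, log2 fold change 0.52, adjusted p = 0.0146 in WT cells and 0.21, adjusted p = 0.122 in PPARγ/+ cells). Both values were under 2-fold.

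Of the 13 tested genes of receptors and signalling, 3 rose and 0 fell in WT cells, and 3 rose and 1 fell in PPARγ/+ cells. Beside them, 8.94% of all tested genes rose and 7.53% fell in WT cells, and 9.11% rose and 6.06% fell in PPARγ/+ cells. Falls of 0 and 1 of 13 genes say little beside these shares. The growth hormone receptor *Ghr* rose in both (limma, log2 fold change 1.77, SE 0.22, adjusted p = 0.00183 in WT and 1.72, SE 0.18, adjusted p = 0.000428 in PPARγ/+), with no overlap of the days. *Igf2*, which encodes a ligand of the receptor that proliferin binds, rose by a log2 fold change of 3.95 (SE 0.92, limma, adjusted p = 0.0176) in WT and 3.02 (SE 0.45, adjusted p = 0.00177) in PPARγ/+ cells. With 1 library left out, the WT value of *Igf2* ran from 3.22 (without WT_0d replicate 3) to 4.82 (without WT_0d replicate 2), still called. *Socs3*, a feedback inhibitor of JAK signalling, rose by 1.24 and 1.23, and without WT_5d replicate 3 the WT value was 0.93, under 2-fold. The STAT5 target *Cish* fell in PPARγ/+ cells (log2 fold change −1.35, limma, adjusted p = 0.00342), from an FPKM of at most 0.264, a call lost with a pseudocount of 1 (−0.25). The median of the list was 0.26 in WT and 0.20 in PPARγ/+ cells, where the medians of all genes were −0.081 and −0.095.

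Proliferin transcription is known to respond to serum, growth factors and glucocorticoids, with AP-1 (dimers of Fos and Jun proteins) among its regulators. Of 12 such regulators, 3 rose and 1 fell in each cell type from 0d to 5d, where 8.94% (WT) and 9.11% (PPARγ/+) of all tested genes rose and 7.53% and 6.06% fell, so that 1 of 12 is near the share of all genes. *Fos* FPKM was 3.31, 2.92 and 3.05 in WT_0d and 7.81, 15.3 and 52.7 in WT_5d, and 2.93, 2.37 and 2.57 in PPARγ/+_0d and 18.8, 18.7 and 22.5 in PPARγ/+_5d. Between the days, *Fos* was thus low where the proliferins were high. Within WT_5d and within PPARγ/+_5d, the library with the most *Fos* also had the most of both members. Within WT_0d and within PPARγ/+_0d, that library had the most *Prl2c2* but not the most *Prl2c3*, and in PPARγ/+_0d it had the least. *Fos* rose by a log2 fold change of 2.54 (SE 0.64, limma, adjusted p = 0.0227) in WT and 2.88 (SE 0.11, adjusted p = 1.61e-05) in PPARγ/+ cells, higher in every 5d library. Its WT value was 1.79 without WT_5d replicate 3 and 3.16 without WT_5d replicate 1, still called. *Junb* and the serum response gene *Egr1* rose as well, by 1.60 and 1.64 in WT and by 1.26 and 2.51 in PPARγ/+ cells. *Fosl1*, which encodes the AP-1 subunit Fra-1, fell as the proliferins did, with log2 fold changes of −1.97 (SE 0.16, adjusted p = 0.000402) and −1.36 (SE 0.24, adjusted p = 0.0035), with no overlap of the days. *Myc* (log2 fold change −0.76 and −0.42) and the glucocorticoid receptor gene *Nr3c1* (0.45 and 0.35) were not called in WT and PPARγ/+ cells. Without WT_5d replicate 3, *Myc* was called in WT cells at −1.03. The list's median was 0.42 in WT and 0.70 in PPARγ/+ cells.

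Genes of the cell cycle fell with the proliferins. All 12 of the list fell in WT and all 12 fell in PPARγ/+ cells, with median log2 fold changes of −2.78 and −2.20, where 7.53% and 6.06% of all tested genes fell. Their summed FPKM was 414.4, 526.4 and 541.5 in WT_0d, 84.2, 79.6 and 72.9 in WT_5d, 473.2, 316.6 and 387.6 in PPARγ/+_0d, and 75.1, 79.1 and 79.7 in PPARγ/+_5d, with *Ccna2* the most abundant in PPARγ/+_0d and *Pcna* in the other groups. The cell types thus lay close in these genes on 5d, where their proliferin levels were far apart. The proliferation marker *Mki67* fell, with a log2 fold change of −3.37 (SE 0.26, limma, adjusted p = 0.000379) in WT and −3.53 (SE 0.18, adjusted p = 3.36e-05) in PPARγ/+ cells, lower in every 5d library. The mitotic cyclin gene *Ccnb1* fell too, with −3.98 and −3.96. The part of the cell cycle in the fall of the proliferins was not tested.

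Proliferin is counted among angiogenic factors, and 12 other genes for such factors were tested. In WT cells 1 was called higher and 0 lower (median log2 fold change 0.13), where 8.94% of all tested genes were called higher and 7.53% lower. In PPARγ/+ cells 3 were called higher and 0 lower (median 0.55), against 9.11% and 6.06% of all tested genes. With 12 genes, the counts of 0 lower say little beside these shares. *Angpt1*, for the endothelial ligand angiopoietin 1, rose by 1.13 (SE 0.26, limma, adjusted p = 0.0165) in WT and 1.55 (SE 0.24, adjusted p = 0.00195) in PPARγ/+ cells. The WT value was under 2-fold without WT_0d replicate 1 (0.89) and without WT_5d replicate 3 (0.96). In PPARγ/+ cells the lymphatic growth factor gene *Vegfc* and *Fgf2* rose by 1.26 and 1.10, the latter 0.84 and under 2-fold with a pseudocount of 1.

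Muscle genes moved the opposite way to the proliferins between the days. Of 8 myoblast and myotube genes, 6 rose and 1 fell in WT cells, and 7 rose and 0 fell in PPARγ/+ cells, with median log2 fold changes of 5.67 and 5.50. The shares of all tested genes were 8.94% higher and 7.53% lower in WT, and 9.11% and 6.06% in PPARγ/+ cells. Their summed FPKM was 175.4, 308.7 and 134.5 in WT_0d, 3957, 3129 and 931.8 in WT_5d, 61.5, 70.8 and 98.0 in PPARγ/+_0d, and 1080, 1226 and 1265 in PPARγ/+_5d, with *Des* the most abundant in every 0d library and *Acta1* in every 5d library. On each day, the group with less of these transcripts by its mean was PPARγ/+, the group with more proliferin, although WT_5d replicate 3 lay below the PPARγ/+_5d libraries. *Myog* rose by a log2 fold change of 5.40 (SE 0.88, limma, adjusted p = 0.00473) in WT and 5.90 (SE 0.51, adjusted p = 0.0002) in PPARγ/+ cells, higher in every 5d library. Its WT value ran from 4.71 to 6.37 over 15 alternatives, called in each. The myoblast factor gene *Myf5* fell in WT cells (log2 fold change −1.46, SE 0.20, adjusted p = 0.00268). The part of myotube formation in the proliferin levels was not tested.

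Genes of fibroblasts and adipocytes were counted as markers of other cell states. Of 5 tested fibroblast genes, 4 rose in WT and 5 in PPARγ/+ cells, and 0 fell, with median log2 fold changes of 4.25 and 5.12 (all genes: −0.081 and −0.095). All tested genes were called higher at 8.94% and 9.11% and lower at 7.53% and 6.06%, so that 0 of 5 lower says little. The most abundant was *Col1a1* in every 0d library and *Dcn* in every 5d library, and *Dcn* rose by 4.25 (SE 0.55, limma, adjusted p = 0.00215) and 6.37 (SE 0.30, adjusted p = 2.63e-05). The defining marker *Thy1* was at 0 in every library outside PPARγ/+_5d, where its FPKM was at most 0.0620. The list's summed FPKM was 81.6, 94.1 and 87.6 in WT_0d, 478.5, 526.3 and 281.0 in WT_5d, 19.6, 34.9 and 38.9 in PPARγ/+_0d, and 534.2, 581.3 and 636.8 in PPARγ/+_5d. These sums were higher on 5d in both cell types, while the proliferins were lower, and their part in the proliferin levels was not tested.

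Of 5 tested adipocyte genes, 0 were called in WT cells (median 0.00), which says little where 16.5% of all tested genes were called. In PPARγ/+ cells 4 rose and 0 fell (median 2.69), where 9.11% of all tested genes rose, and *Adipoq*, the most abundant on 5d, rose by 3.15 (SE 0.60, limma, adjusted p = 0.00514). The adipocyte list summed to an FPKM of at most 0.107 in any WT library, to 5.09, 2.92 and 4.18 in PPARγ/+_0d and to 13.3, 20.1 and 67.6 in PPARγ/+_5d, and *Lep* was at 0 in all 12. The adipocyte sum was thus highest in PPARγ/+_5d replicate 3, the library of its group with the most proliferin, and lowest in WT cells. Between the days, the sum and the proliferins moved in opposite directions in PPARγ/+ cells. Every 5d library there had a higher adipocyte sum than any 0d library, and less of both members. Within PPARγ/+_0d, replicate 1 had the highest sum, with the most *Prl2c2* but the least *Prl2c3*. The part of the adipocyte genes in the proliferin levels was not tested.

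Between the cell types on 0d, 1.96% of the tested genes were called at an adjusted p of at most 0.05 and at least 2-fold (0.571% higher and 1.39% lower in PPARγ/+). In lists of 12 or 13 genes, a lack of calls says little beside that share. None was called by limma among the 13 genes of receptors and signalling (median log2 fold change 0.09), 12 regulators (−0.18), 12 cell cycle genes (−0.50) and 12 angiogenic factors (−0.11), where the median of all genes was 0.024. At an unadjusted p of at most 0.05 with no fold limit, these lists held 1, 5, 7 and 4 genes, where 21.3% of all tested genes passed. *Pparg* was higher in PPARγ/+ cells by a log2 fold change of 2.57 (SE 0.31, limma, adjusted p = 0.00148), with all 3 libraries above all WT libraries. Of the myoblast and myotube genes (median −1.47), only *Myf5* was called, lower in PPARγ/+ cells (log2 fold change −1.58, SE 0.19, adjusted p = 0.00165). Of the adipocyte genes (median 1.35), *Adipoq* and *Fabp4* were called higher, with a mean FPKM of 1.82 and 1.86 in PPARγ/+ cells and 0.0200 and 0.0305 in WT cells, and with a pseudocount of 1 the call of *Adipoq* was lost. Of the fibroblast genes (median −0.38), *Col1a1* was called lower (−1.83, limma, adjusted p = 0.0484), a call lost in 11 of 14 alternatives (adjusted p 0.0368 to 0.143 over the 14). It was lost on leaving out any 1 of the 6 libraries on 0d (−2.05 to −1.44), and with a pseudocount of 1, no filter, median-ratio scaling, only the 6 libraries compared or the replicate block. The count of genes called was 180 without PPARγ/+_0d replicate 2 and 226 without replicate 3, against 353 with all libraries.

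Between the cell types on 5d, 1.10% of the tested genes were called (0.571% higher and 0.533% lower in PPARγ/+), 199 genes. That number was 796 (288 higher and 508 lower) without WT_5d replicate 3, the library with the most proliferin of its group. It was 78 to 108 without any other 5d library. None was called by limma among the 13 genes of receptors and signalling (median log2 fold change −0.04), the 12 regulators (0.13), the 12 cell cycle genes (−0.06), the 8 myoblast and myotube genes (−0.85) and the 5 fibroblast genes (0.72), where the median of all genes was 0.024. In lists of 5 to 13 genes, that lack of calls says little beside 1.10%. At an unadjusted p of at most 0.05 with no fold limit, these lists held 3, 1, 0, 3 and 1 genes, where 15.3% of all tested genes passed. Of 12 angiogenic factors (median 0.09), 1 was called: pleiotrophin (*Ptn*), higher by 1.60 (SE 0.32, limma, adjusted p = 0.0346). The *Ptn* call was lost in 8 of 14 alternatives (adjusted p 0.0237 to 0.142 over the 14). It was lost without WT_5d replicate 1 (1.56), on leaving out any 1 PPARγ/+_5d library (1.52 to 1.72), and with no filter, median-ratio scaling, only the 6 libraries compared or the replicate block. *Pparg* was higher by 3.85 (SE 0.31, adjusted p = 0.000173), and 4 of the 5 adipocyte genes were called higher (median 3.99), with a mean *Adipoq* FPKM of 20.4 in PPARγ/+ and 0.00948 in WT cells. The other, *Cfd*, was higher as well and not called (limma, adjusted p = 0.055). *Pparg* itself was not called between the days in either cell type (log2 fold change −0.78 in WT and 0.50 in PPARγ/+).

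The difference between the cell types in their change over the days, an interaction, was computed for list genes and not for proliferins, and 0.760% of the tested genes were called in it (median of all genes −0.010). A call in it is an adjusted p of at most 0.05 with no fold limit. Of the genes of these lists, *Mcm4* (0.91, under 2-fold) and *Myf5* were called.

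The neighbours within 500 kb of the proliferins moved in both directions between the days. Of 10 tested neighbours other than *Prl2c5*, 1 rose and 3 fell in WT cells (median −0.70), and with *Prl2c5* among 11 tested, 1 rose and 2 fell in PPARγ/+ cells (median −0.54). Of all tested genes, 8.94% were called higher and 7.53% lower in WT cells, and 9.11% and 6.06% in PPARγ/+ cells. None of the 10 was called by limma between the cell types on 0d (median −0.33) or 5d (0.10), where 1.96% and 1.10% of all tested genes were called, so that a count of 0 among 10 says little. At an unadjusted p of at most 0.05 with no fold limit, 5 and 1 of the 10 passed, against 21.3% and 15.3% of all tested genes. *Nid1*, for the basement membrane protein nidogen, fell in both cell types, with log2 fold changes of −2.08 (SE 0.21, limma, adjusted p = 0.000905) and −1.20 (SE 0.10, adjusted p = 0.000153), lower in every 5d library. *Gpr137b* fell in WT cells (log2 fold change −1.60, adjusted p = 0.0152) and was not called in PPARγ/+ cells (−0.68), and its pseudogene *Gpr137b-ps* was called in WT cells as well. *Actn2*, a sarcomere gene, rose by 3.96 and 2.54, the latter 0.61 and no longer called with a pseudocount of 1.

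The genes most like the proliferins over the 12 libraries were ranked by Pearson's r with the mean of both members on log2(FPKM + 0.1), among 12397 genes. The first was *Vim* (vimentin, the intermediate filament protein of mesenchymal cells and myoblasts), with r = 0.981, followed by *Supt20* (0.975), *Meis1* (0.965), *Deaf1* (0.961) and *Cobll1* (0.959). Mean *Vim* FPKM was 1299 in WT_0d, 530.0 in WT_5d, 1491 in PPARγ/+_0d and 940.6 in PPARγ/+_5d. The order of the 4 groups was thus that of the proliferins, over a far smaller range. These r values follow the differences between the groups and carry no test.

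Since the proliferins moved together, 250 bases at the gene start are shown for *Prl2c3* and *Prl2c5*, from RefSeq promoters on GRCm38.p6, with *Prl2c2* not in that table. The stretches are chr13:12800080-12800329 on the minus strand for *Prl2c3* and chr13:13182466-13182715 on the plus strand for *Prl2c5*, and they are 96% identical, with 8 mismatches and 2 gap positions. The stretch of *Prl2c3* ends just before the first base of its GENCODE transcript, and that of *Prl2c5* includes 1 base of the transcript. Capitals mark TATATAAG, a TATA box form searched after the sequences were seen, which begins 30 bases before the first base of the GENCODE transcript in both genes.
Prl2c3: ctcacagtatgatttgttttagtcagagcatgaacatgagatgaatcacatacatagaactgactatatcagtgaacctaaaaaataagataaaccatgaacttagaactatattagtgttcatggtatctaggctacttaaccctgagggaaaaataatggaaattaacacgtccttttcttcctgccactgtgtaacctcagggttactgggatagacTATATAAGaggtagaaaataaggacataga
Prl2c5: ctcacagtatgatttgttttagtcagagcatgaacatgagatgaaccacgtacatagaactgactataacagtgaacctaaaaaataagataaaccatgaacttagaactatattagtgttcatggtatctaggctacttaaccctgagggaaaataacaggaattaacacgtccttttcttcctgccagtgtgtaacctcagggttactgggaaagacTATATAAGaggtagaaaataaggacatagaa

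Of 32544 promoter stretches of this length, 0.943% hold TATATAAG on either strand. The AP-1 motif TGACTCA was in neither proliferin stretch and in 4.46% of all. AGGTCA, a core element bound by nuclear receptors (14% of all), the E-boxes CAGCTG (13.1%) and CACCTG (17.3%) and TGTTCT (16%), a core element of the glucocorticoid receptor's sites, were in neither, on either strand. Only exact matches were counted, and near forms of a motif were not searched. These counts say only which letters the windows hold.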

How the data were processed

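RNA sequencing of 12 C2C12 libraries was read as the deposited table of FPKM, which the authors made with Trim Galore, STAR and HTSeq. The submitters' processing notes name mm9 and the study's methods name GRCm38, and positions here are from GRCm38 (GENCODE M21, Ensembl release 96). Of 46983 gene identifiers, 46488 had a symbol in that annotation. Members and gene lists were chosen with earlier results of these data known. The 18023 genes that reached 0.1 FPKM in 3 or more of the 12 libraries were tested on log2(FPKM + 0.1) with limma 3.58.1 in R 4.3.3 (two-sided, empirical Bayes with trend, Benjamini-Hochberg adjustment over all tested genes). Day comparisons used the 6 libraries of a cell type, called at an unadjusted p of at most 0.05 and at least 2-fold, the study's thresholds. Cell type comparisons used all 12 libraries, called at an adjusted p of at most 0.05 and at least 2-fold. The interaction was added after the values were seen and was called at an adjusted p of at most 0.05 with no fold limit. Any gene of the lists could be named. Likeness was ranked among tested genes outside the prolactin family with a mean of at least 1 FPKM in a group.

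Mapped fragments per library were recovered as the number that makes FPKM times annotated exon length whole, which held within 0.01 for 78.2% of 27138 expressed genes (21224). For the members, annotated exon lengths (1090 and 1360 bases) did not give whole fragments, so the smallest lengths that did (835 for *Prl2c2*, 850 for *Prl2c3*) were used, and their fragment counts are the smallest that the values allow. The floor is 3 fragments, which is an FPKM of 0.138 to 0.193 for *Prl2c2*, and it covers counting error only. Sequence identity, shared stretches and motifs were computed with Python 3.11.15 (numpy 2.4.6, pandas 2.3.3), and figures were drawn with matplotlib 3.10.9. Alternatives were another pseudocount, filter, scaling, set of libraries in the fit, a replicate block, each library left out, and the members summed.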

Additional observations from a re-analysis of the deposited data

Results flagged for a closer look

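A pair of list genes differed between the cell types in their change from 0d to 5d, by the cell type by day interaction in limma on all 12 libraries, a term added after the values were seen. *Mcm4*, a subunit of the replicative helicase, had an interaction of 0.91 on the log2 scale (SE 0.18, adjusted p = 0.0498), with a smaller fall in PPARγ/+ cells (−1.24) than in WT cells (−2.16). Its mean FPKM was 38.1 in WT_0d, 8.44 in WT_5d, 23.8 in PPARγ/+_0d and 9.93 in PPARγ/+_5d. This value was under 2-fold, with an adjusted p near the threshold, and the interaction was not computed under the alternatives. *Myf5* had an interaction of 2.20 (SE 0.27, adjusted p = 0.00844): its mean FPKM was 12.02 in WT_0d, 4.43 in WT_5d, 3.96 in PPARγ/+_0d and 6.78 in PPARγ/+_5d. Neither gene encodes a proliferin, and their relation to the proliferin levels was not tested.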

How the results depend on the processing

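The fall of both members in PPARγ/+ cells kept its direction and its call in all 16 alternatives of each gene. The log2 fold change ranged from −3.01 to −2.68 for *Prl2c2* and from −3.37 to −2.92 for *Prl2c3*. With the replicate block, which treats equal replicate numbers as pairs, the adjusted p was 0.00061 and 0.000517 (limma). Replicate numbers showed no pairing: r over 18 same-numbered pairs ran from −0.068 to 0.083. In the WT description, *Prl2c2* ran from −6.43 to −4.88 and *Prl2c3* from −7.07 to −5.68, the last with a pseudocount of 1. Median-ratio scaling shifted the median of all genes by 0.104 in WT and 0.116 in PPARγ/+ cells, and with it the members' values in PPARγ/+ cells were −2.68 and −2.96.

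With a pseudocount of 1, the genes called numbered 1441 (WT days), 1241 (PPARγ/+ days), 120 (cell types on 0d) and 95 (cell types on 5d). With a filter at FPKM 1 they numbered 1806 for the PPARγ/+ days and 93 for the cell types on 5d, where fewer genes were tested. Comparing only the 6 libraries of 5d gave 28. Leaving out each library gave 180 to 325 genes on 0d and 78 to 796 on 5d between the cell types, the highest without WT_5d replicate 3, and 2765 to 3057 (WT) and 2535 to 2829 (PPARγ/+) between the days. Of 58 alternative counts, 43 were within 1.5 times the count reported, and the cause of the others was not tested unless named.

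For the 59 results on named list genes, 846 of 873 alternative values kept direction and call, 26 lost the call, 1 gained it and 0 turned direction. With a pseudocount of 1, *Cish* (−0.25), *Fgf2* (0.84) and *Actn2* (0.61) in PPARγ/+ cells and *Adipoq* and *Col1a1* between the cell types on 0d (1.44 and −1.78) lost theirs. The WT_5d values rest on few fragments, 11 to 97 for *Prl2c2* and 11 to 48 for *Prl2c3*.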
